A study of Sus scrofa with 9 samples.

Results

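The heat shock genes of the cytosol and mitochondrion were followed in primary Göttingen minipig myoblasts that expressed human DUX4, pig DUXC or GFP. The 77 members were taken by symbol from a count table of 27339 genes. They are the rows named HSPA, HSPB, HSPD, HSPE, HSPH, HSP90A, HSF, DNAJ or BAG followed by a number or letter, together with CRYAB, and without the endoplasmic reticulum (ER) genes HSPA5, DNAJB9, DNAJB11, DNAJC3 and DNAJC10. The choice used names and not values, though earlier results of these data were known. It keeps 7 genes of proteins known from the ER (HSPA13, DNAJB12, DNAJB14, DNAJC1, DNAJC14, DNAJC16 and DNAJC18), and it also takes in HSPBAP1, HSF2BP and HSPB11, which share a name more than a chaperone function. Pig HSP70.2, for which RefSeq gives HSPA1A and HSPA1B as synonyms, does not match the rule and is not a member. It is described beside the HSP70 genes because it is the classical inducible HSP70 gene.

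The cells of all 9 libraries were at passages 7 to 9 and received doxycycline at 1 µg/mL for the 16 h before harvest, the controls included. In 3 libraries the doxycycline-inducible transgene was human DUX4, in 3 it was pig DUXC and in 3, the controls, it was GFP. Polyadenylated RNA was sequenced with a stranded kit. DUX4 and DUXC are double homeobox transcription factors, and misexpression of DUX4 in muscle underlies facioscapulohumeral muscular dystrophy. Whether the replicate libraries are separate cultures is not stated in the labels. The p-values therefore reflect the variation among these libraries alone, and that variation could be technical.

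Heat shock proteins keep other proteins folded. J proteins, encoded by the DNAJ genes, deliver unfolded clients to HSP70 and start its ATP cycle, and nucleotide exchange factors of the HSP110, BAG and HSPBP1 kinds reset it. HSP90 finishes the folding of kinases and receptors, small heat shock proteins hold clients without ATP, and the HSP60 and HSP10 pair folds proteins inside the mitochondrion. When unfolded proteins accumulate, the factor HSF1 raises the transcription of HSP70, HSP110, J-protein and small heat shock genes. In muscle, CRYAB, HSPB8 and BAG3 are known for guarding the contractile apparatus.

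Library totals ranged from 36580573 to 44420895 counts. Levels are given as library-normalised read counts (counts per 1e6, CPM), which do not correct for gene length, so they are compared between libraries and not between genes. Fold changes and p-values come from edgeR's two-sided quasi-likelihood test over 15956 genes with Benjamini-Hochberg adjustment, and a gene was called changed at an adjusted p under 0.05. Every pair of replicate libraries differed by more than counting noise. The ratio of chi-square to its degrees of freedom was 6.83 to 17.9 among the DUX4 libraries and 2.62 to 4.39 in the other groups. The 12 myoblast and muscle lineage markers summed to 97.6 to 107 CPM with GFP, of which NCAM1, also made by neurons, gave 86.4 ± 4.25 CPM, DES 7.15 ± 0.326 CPM and ITGA7 5.77 ± 0.438 CPM. The defining regulators were scarce, since MYOD1 had 1 count over the GFP libraries, PAX7 stood at 0.402 ± 0.0975 CPM (SD, n = 3) and MYF5 at 0.705 ± 0.256 CPM. The summed level of 9 fibroblast markers was 49905 to 53030 CPM with GFP, 29048 to 32780 with DUX4 and 25644 to 25663 with DUXC, most of it from COL1A1, COL1A2 and COL3A1. Of the 9, 1 rose and 8 fell with DUX4, and 2 rose and 6 fell with DUXC, where PDGFRA rose by log2 1.31. The lowered shares are 88.9% with DUX4 and 66.7% with DUXC, beside 31.9% and 42.3% of all tested genes. Of all tested genes, 32.9% rose with DUX4 and 40.2% rose with DUXC. In bulk samples, fewer cells of a type and less RNA per cell cannot be told apart.

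In the control, 14 members stood at 100 CPM or more, 36 between 10 and 100 CPM, 14 between 1 and 10 CPM and 13 under 1 CPM. Summed over all members, the level was 8954 ± 48.8 CPM with GFP, 10272 ± 139 CPM with DUX4 and 11914 ± 232 CPM with DUXC (SD, n = 3 each). HSPA8, the constitutive HSP70 of the cytosol, contributed 1846 ± 3.72, 2458 ± 49.3 and 4311 ± 148 CPM of these sums. Without HSPA8 the sums were 7109 ± 52.5, 7815 ± 103 and 7604 ± 86.2 CPM. The normalisation lowered DUXC levels relative to DUX4, with factors of 1.05 to 1.06 and 0.979 to 0.987. The close order of DUX4 and DUXC without HSPA8 therefore rests on the scaling. Without HSPA8, HSP90AA1 and HSP90AB1 they were 4056 ± 30.9, 4522 ± 56.5 and 4907 ± 77.8 CPM, with DUXC again the highest. The groups did not overlap in the sum over all members, and the 3 DUXC libraries were the highest.

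Of the 77 members 68 had enough counts for the test. A member scarce with GFP could pass that filter through its counts with a transgene, as HSPB3 did with DUXC. The 2 comparisons against GFP share their 3 control libraries. With DUX4, 31 of 68 tested members rose and 16 fell. Together 69.1% of them were called, beside 64.8% of all tested genes, with 45.6% raised beside 32.9% and 23.5% lowered beside 31.9%. The median log2 fold change was 0.07 for the members and 0.0035 for all tested genes. HSPA6, HSPB3, HSPB8, HSPA2, DNAJB1 and DNAJC9 rose at least 2-fold, which is 8.82% of tested members beside 10.5% of all genes, and HSPB6 and HSPA12A fell at least 2-fold, 2.94% beside 5.26%. The groups did not overlap for 75.0% of tested members, beside 67.0% of all genes.

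With DUXC, 30 tested members rose and 31 fell. The share called was 89.7%, beside 82.5% of all tested genes, with 44.1% raised beside 40.2% and 45.6% lowered beside 42.3%. The median log2 fold change was -0.011 for the members and -0.031 for all genes. At least 2-fold higher were 16 members, or 23.5% beside 21.3% of all genes: HSPA6, HSPB3, HSPA2, DNAJB5, DNAJB1, HSPA1L, DNAJC21, DNAJC24, HSPH1, DNAJA4, DNAJB4, HSPA8, HSPB8, BAG6, HSF2 and DNAJA1. HSPB7 and HSPB6 fell at least 2-fold, 2.94% beside 7.97%. The groups did not overlap for 89.7% of tested members, beside 83.5% of all genes. The share of members called with DUXC thus lay near that of all genes in each direction.

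In the direct comparison of the transgenes, 30 tested members were higher with DUX4 and 29 were higher with DUXC, and 86.8% were called, beside 82.4% of all genes. Higher with DUX4 were 44.1% beside 40.8%, and lower 42.6% beside 41.6%. HSPB7 alone of the tested members was at least 2-fold higher with DUX4, beside 9.83% of all genes. DNAJB5, HSPB3, DNAJB4, HSPA1L, DNAJA4, HSPA2, DNAJC21, DNAJC24 and DNAJB1 were at least 2-fold higher with DUXC, 13.2% beside 20.7% of all genes. The groups did not overlap for 86.8% of tested members, beside 83.0% of all genes.

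**Figure D1:**
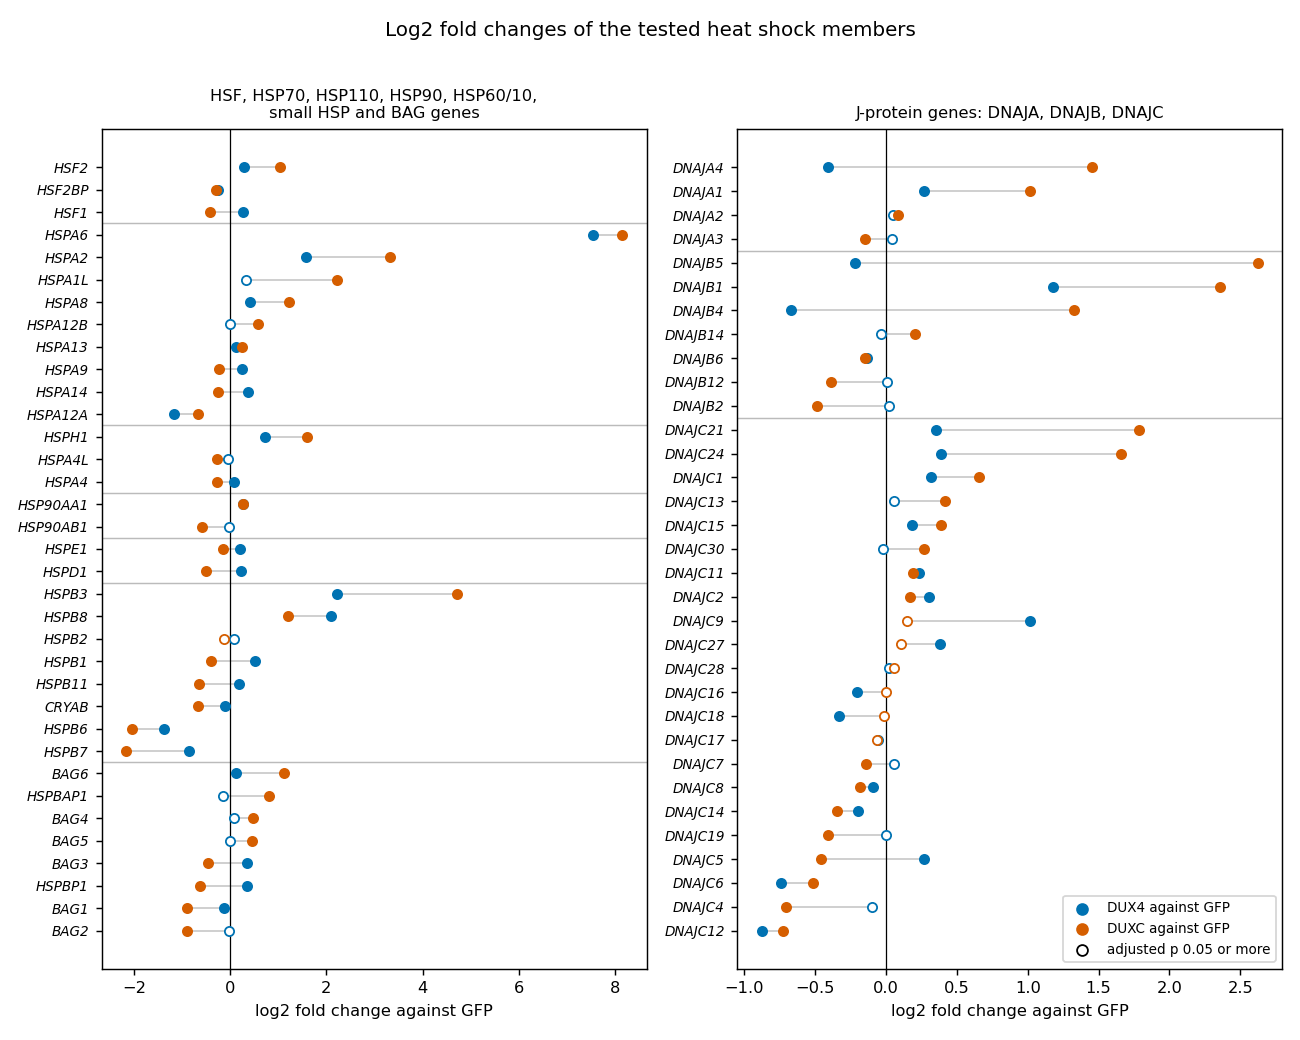
Log2 fold changes against GFP of the 68 tested heat shock members, with DUX4 in blue and DUXC in orange, grouped by family (grey lines) and ordered by the DUXC value; open circles have an adjusted p of 0.05 or more. HSPA6 stands at 7.55 and 8.15, while DNAJB5, DNAJB4 and DNAJA4 lie below 0 with DUX4 and above 0 with DUXC.

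Both tested heat shock factors rose with DUX4, and with DUXC HSF1 fell and HSF2 rose. HSF1, the main activator of the response, stood at 29.6, 27.7 and 29.6 CPM in the GFP libraries, 32.5, 36.8 and 34.9 CPM with DUX4 and 21.9, 22.7 and 20.0 CPM with DUXC. All DUX4 libraries lay above the controls and all DUXC libraries below them. The log2 fold change was 0.26 (SE 0.05, adjusted p = 1.59e-05) with DUX4 and -0.43 (SE 0.05, adjusted p = 9.13e-10) with DUXC. HSF2, a related factor that can pair with HSF1, had 24.0, 23.7 and 23.9 CPM with GFP, 32.4, 27.7 and 27.0 CPM with DUX4 and 49.4, 48.2 and 48.1 CPM with DUXC. The 3 groups did not overlap and the DUXC libraries were the highest, with log2 0.28 (SE 0.05, adjusted p = 7.86e-06) for DUX4 and 1.03 (SE 0.05, adjusted p = 5.44e-23) for DUXC. HSF2BP, a binding partner of HSF2 known from meiosis, fell by 0.25 and 0.29 on the log2 scale with DUX4 and DUXC. HSF5, a heat shock factor of the male germline, was too scarce to test, with 1 count over the GFP libraries, 4 with DUX4 and 30 with DUXC.

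HSPA6, an HSP70 that human cells make almost only under stress, showed the largest fold changes of the members. It lies on chromosome 4, 88970592 to 88973109 (RefSeq, Sscrofa11.1). Its level was 0.441, 0.745 and 0.411 CPM in the GFP libraries, 127, 80.8 and 93.0 CPM with DUX4 and 139.5, 156 and 159 CPM with DUXC. Each DUXC library stood above each DUX4 library, though only by a small gap. The log2 fold change was 7.55 (SE 0.36, adjusted p = 1.77e-06) with DUX4 and 8.15 (SE 0.35, adjusted p = 5.02e-07) with DUXC, and DUX4 was below DUXC by log2 -0.60 (SE 0.16, adjusted p = 0.0135). The coefficient of variation of HSPA6 between the DUX4 libraries was 23.8%, the highest of the 48 members with at least 10 CPM there, whose median was 2.90%. Between the DUXC libraries it was 6.80%.

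HSP70.2, the inducible HSP70 gene outside the rule (chromosome 7, 23925929 to 23927854), had 53.7, 51.3 and 56.4 CPM with GFP, 214, 203 and 193 CPM with DUX4 and 916, 1028 and 919.7 CPM with DUXC. The 3 groups were far apart. It rose by log2 1.92 (SE 0.05, adjusted p = 2.01e-15) with DUX4 and 4.15 (SE 0.05, adjusted p = 2.26e-20) with DUXC, and was lower with DUX4 than with DUXC by log2 -2.23 (SE 0.05, adjusted p = 3.61e-17). HSPA1L, a relative known from the testis whose annotated span contains HSP70.2, stood at 1.04 ± 0.121 CPM with GFP, 1.30 ± 0.183 CPM with DUX4 and 4.92 ± 0.866 CPM with DUXC. It rose with DUXC (log2 2.23, SE 0.16, adjusted p = 1.05e-17), and with DUX4 it overlapped the controls (adjusted p = 0.157). HSP70 genes have closely similar coding sequences and how reads matching several genes were counted is not given in the sources used here, so the split between HSPA6, HSP70.2, HSPA1L, HSPA2 and HSPA8 is uncertain.

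HSPA2, an HSP70 of male germ cells, had 1.30, 1.49 and 1.62 CPM with GFP, 4.70, 4.20 and 4.31 CPM with DUX4 and 15.1, 14.2 and 15.0 CPM with DUXC. The groups did not overlap, and the gene was 3.00-fold higher with DUX4 (adjusted p = 1.35e-15) and 10.1-fold higher with DUXC (adjusted p = 6.73e-32). HSPA8 stood at 1841, 1848 and 1847 CPM with GFP, 2469, 2500.5 and 2404 CPM with DUX4 and 4144, 4428 and 4360.2 CPM with DUXC. It was 1.33-fold higher with DUX4 (adjusted p = 3.98e-17) and 2.34-fold higher with DUXC (adjusted p = 3.49e-36), again without overlap.

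Of the other HSP70 relatives, HSPA14, which works at the ribosome, rose with DUX4 (log2 0.37) and fell with DUXC (log2 -0.26). HSPA13, an HSP70 of the ER, rose with both, by log2 0.12 and 0.26. HSPA12A, a distant member of the family, fell from 15.6 ± 0.203 CPM with GFP to 6.90 ± 0.361 with DUX4 (log2 -1.17, SE 0.07, adjusted p = 4.57e-19) and 9.74 ± 0.832 with DUXC (log2 -0.67, SE 0.07, adjusted p = 4.90e-12). HSPA12B stood near 1 CPM in the control and rose with DUXC by log2 0.57 (adjusted p = 0.00881).

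The HSP110 genes encode the main exchange factors of cytosolic HSP70. HSPH1, the stress-inducible one, had 109, 107 and 107 CPM with GFP, 187, 176 and 173 CPM with DUX4 and 317, 332 and 335 CPM with DUXC. The 3 groups stood clear of each other, at log2 0.73 (SE 0.03, adjusted p = 9.31e-25) for DUX4 and 1.61 (SE 0.03, adjusted p = 2.46e-39) for DUXC. Its relatives went the other way with DUXC: HSPA4 and HSPA4L both fell by 0.28 on the log2 scale (adjusted p = 3.35e-12 and 2.00e-08). With DUX4, HSPA4 rose by log2 0.08 (adjusted p = 0.0101), and HSPA4L did not pass, at log2 -0.05.

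The cytosolic HSP90 pair differed with DUXC. HSP90AA1, the inducible form, rose from 1256 ± 9.42 CPM with GFP to 1522 ± 35.8 with DUX4 (log2 0.28) and 1506 ± 5.99 with DUXC (log2 0.26). The DUX4 and DUXC libraries overlapped, and the difference between them was log2 0.014 (SE 0.03, adjusted p = 0.643), a sign that turned under other scalings, the lowest value being -0.087 with library size alone (adjusted p = 0.00432). HSP90AB1, the constitutive form, had 1814, 1763 and 1812 CPM with GFP, 1801, 1747 and 1766 CPM with DUX4 and 1187, 1185 and 1198 CPM with DUXC. DUXC lay below both other groups, at log2 -0.59 against GFP (SE 0.03, adjusted p = 3.25e-24), and DUX4 did not pass (adjusted p = 0.542).

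DNAJB1, the main stress-inducible J protein of HSP70 (chromosome 2, 64761672 to 64764482), stood at 38.0, 35.8 and 38.7 CPM with GFP, 86.0, 83.8 and 84.2 CPM with DUX4 and 185, 201 and 189 CPM with DUXC. The libraries of a group lay close together and the groups far apart. It was 2.26-fold higher with DUX4 (adjusted p = 1.54e-30) and 5.11-fold higher with DUXC (adjusted p = 4.89e-44). DNAJA1, a J protein of the cytosol that works with HSPA8, rose from 265 ± 2.71 CPM with GFP to 320.0 ± 5.98 with DUX4 (log2 0.27, adjusted p = 3.78e-11) and 536 ± 13.5 with DUXC (log2 1.01, adjusted p = 6.56e-33).

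**Figure D2:**
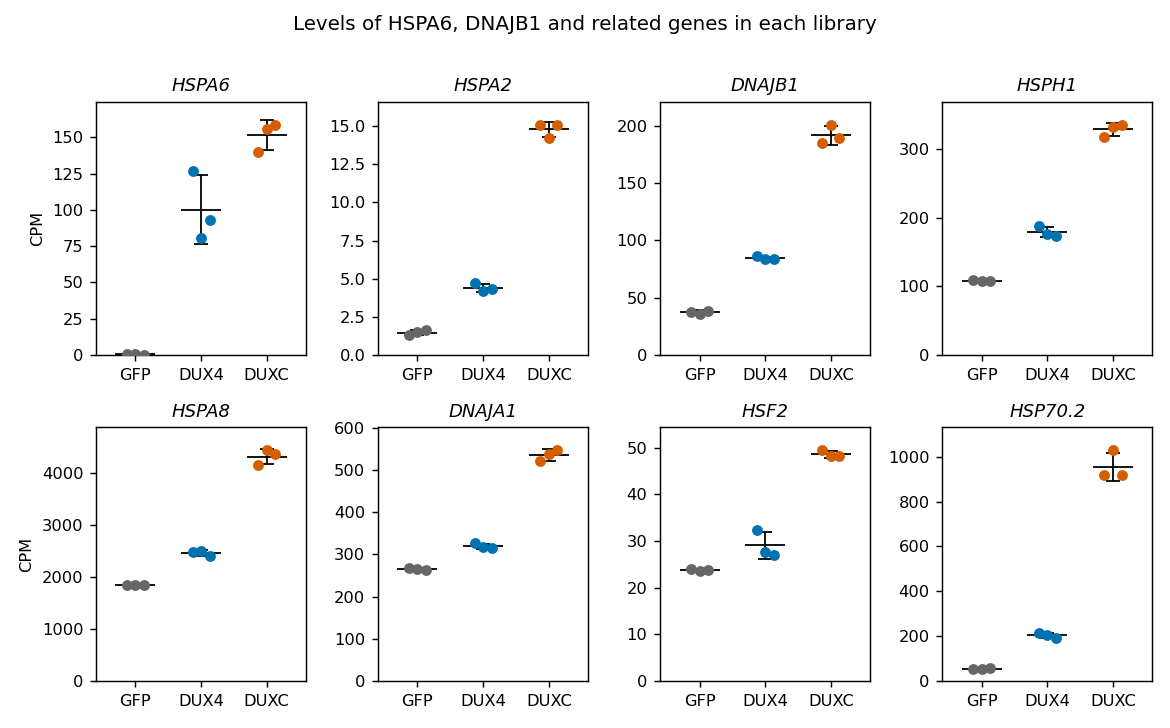
CPM of HSPA6, HSPA2, DNAJB1, HSPH1, HSPA8, DNAJA1, HSF2 and HSP70.2 in each library (points) with the mean and SD of n = 3 (black), on linear axes that start at 0. In each panel the DUXC libraries are the highest and the GFP libraries the lowest, and the DUX4 libraries of HSPA6 spread from 80.8 to 127 CPM.

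DNAJB4, DNAJB5 and DNAJA4 were lower with DUX4 and higher with DUXC than with GFP. DNAJB4, a close relative of DNAJB1 with a known role in muscle, had 113, 115 and 104 CPM with GFP, 71.3, 68.5 and 68.2 CPM with DUX4 and 272, 273 and 288 CPM with DUXC. No library of one group reached those of another. The log2 fold change was -0.67 (SE 0.04, adjusted p = 9.16e-22) with DUX4 and 1.33 (SE 0.03, adjusted p = 6.92e-35) with DUXC, and DUX4 differed from DUXC by log2 -2.00 (SE 0.04, adjusted p = 1.16e-41).

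DNAJB5, another relative of DNAJB1, had 6.49, 7.01 and 7.14 CPM with GFP, 5.90, 6.45 and 5.31 CPM with DUX4 and 40.8, 43.7 and 42.5 CPM with DUXC. It rose 6.16-fold with DUXC (SE of log2 0.06, adjusted p = 1.57e-36). Its DUX4 value was log2 -0.22 (SE 0.08, adjusted p = 0.0182), and this call was lost without DUX4 replicate 3 (adjusted p = 0.137), without GFP replicate 2 or 3 (adjusted p = 0.0518 and 0.0667) and with DESeq2 (adjusted p = 0.0528), within 0.00525 to 0.137 over all alternatives. DNAJA4, a cytosolic J protein close to DNAJA1, went from 10.4 ± 0.716 CPM with GFP to 7.80 ± 0.811 with DUX4 (log2 -0.41, SE 0.08, adjusted p = 7.97e-06) and 28.4 ± 1.18 with DUXC (log2 1.46, SE 0.06, adjusted p = 1.88e-25).

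The remaining class A and B J proteins moved by less. DNAJA2, a disaggregating partner of HSPA8, did not pass with DUX4 (log2 0.05, adjusted p = 0.175), though it did with DESeq2, its size factors and library size alone, at adjusted p from 0.0388 to 0.0466. Its rise with DUXC (log2 0.09, adjusted p = 0.0148) was lost without DUXC replicate 2, without GFP replicate 1 or 3 and with no filter, at adjusted p from 0.0572 to 0.286. DNAJB6, which keeps aggregating proteins soluble and whose mutations cause a limb-girdle muscular dystrophy, stood at 77.0 ± 4.20 CPM with GFP and 69.3 ± 2.65 CPM with DUXC. Its log2 fold changes with DUX4 and DUXC were -0.13 (adjusted p = 0.00205, lost without GFP replicate 1 at 0.0708) and -0.15 (adjusted p = 0.000353, lost with library size alone at 0.518, with DESeq2's size factors at 0.0691 and with DESeq2 at 0.119). DNAJB2, a neuronal relative, fell with DUXC by 0.49 on the log2 scale (adjusted p = 1.43e-08).

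J proteins of class C share only the J domain and serve many processes. Of 25 such members 22 were tested. With DUX4 9 rose and 6 fell, or 40.9% and 27.3% beside 32.9% and 31.9% of all genes. With DUXC 8 rose and 8 fell, or 36.4% each way beside 40.2% and 42.3%, so the class lay near or below all genes. DNAJC21, which helps mature the large ribosomal subunit, had 23.6, 27.6 and 24.9 CPM with GFP, 33.2, 32.4 and 31.3 CPM with DUX4 and 87.8, 88.5 and 86.4 CPM with DUXC. The DUXC libraries lay far above both other groups, 3.45-fold above GFP (adjusted p = 4.01e-36), and DUX4 was 1.27-fold above GFP (adjusted p = 1.06e-08).

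DNAJC24, needed for the diphthamide modification of an elongation factor, rose from 33.8 ± 2.97 CPM to 44.2 ± 3.19 with DUX4 (log2 0.39, adjusted p = 4.10e-06) and 106 ± 3.70 with DUXC (log2 1.66, adjusted p = 2.18e-17). DNAJC9, a histone chaperone of dividing cells, was the one class C member that rose at least 2-fold with DUX4, from 3.89 ± 0.410 to 7.88 ± 0.421 CPM (log2 1.02, SE 0.10, adjusted p = 9.09e-13). Its DUXC level of 4.30 ± 0.373 CPM overlapped the controls (adjusted p = 0.215).

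Falls among the class C genes were smaller than 2-fold. DNAJC6, which uncoats clathrin vesicles, fell with DUX4 by 0.74 and with DUXC by 0.52 on the log2 scale, and DNAJC12, a partner of the aromatic amino acid hydroxylases, fell by 0.88 and 0.73. DNAJC18 fell with DUX4 (log2 -0.33, adjusted p = 9.63e-11) and did not pass with DUXC (log2 -0.018), where library size alone gave a rise (log2 0.11, adjusted p = 0.0103). DNAJC4 fell with DUXC (log2 -0.71, adjusted p = 2.91e-10) and did not pass with DUX4. DNAJC5, a chaperone of synaptic vesicles, rose with DUX4 (log2 0.27, adjusted p = 8.16e-06) and fell with DUXC (log2 -0.46, adjusted p = 6.78e-11).

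HSPB6 and HSPB7 fell with both transgenes. HSPB6, a small heat shock protein of smooth, cardiac and skeletal muscle, stood at 140.4, 122 and 134 CPM with GFP, 47.6, 51.4 and 53.0 CPM with DUX4 and 30.5, 34.4 and 30.6 CPM with DUXC. The 3 groups did not overlap, and it fell by 1.38 (SE 0.05, adjusted p = 1.63e-14) and 2.05 (SE 0.06, adjusted p = 2.57e-17) on the log2 scale. HSPB7, a heat shock protein of heart and skeletal muscle, had 13.6, 12.6 and 13.7 CPM with GFP, 6.12, 7.64 and 8.38 CPM with DUX4 and 3.56, 2.64 and 2.70 CPM with DUXC. It was lowest with DUXC, 4.47-fold below GFP (adjusted p = 4.64e-21), and 1.80-fold below GFP with DUX4 (adjusted p = 8.93e-11).

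CRYAB, the small heat shock protein alpha B crystallin (chromosome 9, 39638505 to 39643530), had 57.0, 56.1 and 54.7 CPM with GFP, 55.3, 50.4 and 50.7 CPM with DUX4 and 33.9, 37.5 and 33.6 CPM with DUXC. DUX4 overlapped the controls, and DUXC lay below both other groups at log2 -0.67 (SE 0.04, adjusted p = 1.00e-18). The DUX4 value of log2 -0.10 (SE 0.04, adjusted p = 0.0348) was lost under DESeq2's size factors (0.115), library size alone (0.113), DESeq2 (0.188) and the fit of only these groups (0.0508). Without DUX4 replicate 2 or 3 or GFP replicate 1 or 2 it was lost as well, at 0.169, 0.138, 0.128 and 0.0746. HSPB2, whose span overlaps that of CRYAB, stood under 1 CPM on average in each group and did not pass in any comparison.

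The 7 markers of smooth muscle and pericytes summed to 2738 to 2935 CPM with GFP, 1149 to 1255 CPM with DUX4 and 665 to 693 CPM with DUXC, and each had counts in every group. Most of the GFP sum came from ACTA2 (1664 ± 55.4 CPM) and TAGLN (900 ± 33.4 CPM). Of these 7, 2 rose and 4 fell with DUX4, and 2 rose and 5 fell with DUXC. These are 28.6% and 57.1% with DUX4, beside 32.9% and 31.9% of all genes. With DUXC they are 28.6% and 71.4%, beside 40.2% and 42.3%. RGS5, among those that rose with DUXC, had 11 counts with GFP, 16 with DUX4 and 59 with DUXC. It had enough counts for the test only through the DUXC libraries. CSPG4 was among those that rose with DUX4, from 172 ± 8.26 to 301 ± 11.8 CPM. The part of these markers in the lower HSPB6, HSPB7 and CRYAB was not tested. HSPB8, which acts with BAG3 to clear misfolded proteins, went the other way, with 0.954, 0.693 and 0.847 CPM with GFP, 4.43, 3.14 and 3.21 CPM with DUX4 and 1.96, 2.18 and 1.58 CPM with DUXC. The DUX4 libraries were the highest, 4.29-fold above GFP (adjusted p = 1.45e-14), and DUXC was 2.29-fold above it (adjusted p = 5.97e-07). DUX4 exceeded DUXC by log2 0.91 (SE 0.15, adjusted p = 4.92e-07).

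HSPB3, a small heat shock protein of skeletal muscle, had 3 counts over the GFP libraries, 16 with DUX4 and 88 with DUXC. It had enough counts for the test only through the DUXC libraries, where it was highest, and its adjusted p-values carry that limit. The ratio to GFP was 29.3 with DUXC (95% interval 9.71 to 145, counting error only; adjusted p = 1.59e-10) and 5.14 with DUX4 (1.47 to 27.5; adjusted p = 0.0167). The DUX4 call was lost without DUX4 replicate 2 (adjusted p = 0.209) and without GFP replicate 3 (0.0815). Leaving out 1 library moved the fitted log2 value with DUX4 from 2.23 to between 1.47 (without DUX4 replicate 2) and 3.06 (without GFP replicate 1). With DUXC it moved from 4.71 to between 4.18 (without GFP replicate 3) and 5.53 (without GFP replicate 1). The 13 differentiated muscle fibre markers also summed to more with DUXC, 33.1 to 36.8 CPM against at most 12.6 CPM with GFP and 19.3 to 21.1 CPM with DUX4, with 1, 2 and 2 of them at 0 in the DUXC, GFP and DUX4 libraries, and TTN alone stood at 24.7 ± 1.80 CPM with DUXC and 7.18 ± 0.720 CPM with GFP. Of the 9 tested fibre markers, 5 rose and 3 fell with DUXC, and 5 rose and 2 fell with DUX4. These are 55.6% and 33.3% with DUXC, beside 40.2% and 42.3% of all genes. With DUX4 they are 55.6% and 22.2%, beside 32.9% and 31.9%. MYH7, MYBPC1 and TNNC2 had 2, 0 and 8 counts over the GFP libraries and 99, 92 and 174 with DUXC. They had enough counts for the test only through libraries with a transgene, so the raised shares carry that limit. The part of the fibre markers in the HSPB3 result was not tested.

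**Figure D3:**
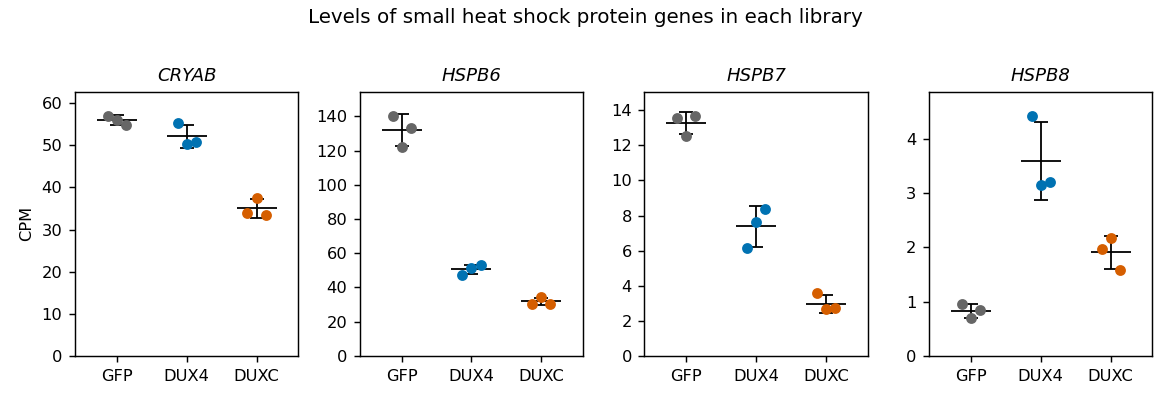
CPM of CRYAB, HSPB6, HSPB7 and HSPB8 in each library (points) with the mean and SD of n = 3 (black), on linear axes that start at 0. CRYAB overlaps between GFP and DUX4, HSPB6 and HSPB7 step down from GFP to DUX4 to DUXC, and HSPB8 is highest with DUX4.

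HSPB1 and BAG3, well known HSF1 targets in human cells, rose with DUX4 and fell with DUXC. HSPB1, the actin-guarding HSP27, had 83.6, 79.5 and 86.9 CPM with GFP, 117, 123 and 119 CPM with DUX4 and 63.2, 67.8 and 58.6 CPM with DUXC. The DUX4 libraries were the highest and the DUXC libraries the lowest, at log2 0.52 (SE 0.04, adjusted p = 2.00e-14) and -0.40 (SE 0.04, adjusted p = 3.53e-11). BAG3, which links HSP70 and HSPB8 to autophagy, had 70.8, 69.5 and 69.4 CPM with GFP, 87.3, 88.0 and 90.5 CPM with DUX4 and 48.9, 54.8 and 49.6 CPM with DUXC. The order of the groups was as for HSPB1, with log2 0.34 (SE 0.04, adjusted p = 2.60e-11) and -0.45 (SE 0.04, adjusted p = 7.34e-15). HSPB11, a protein of ciliary transport despite its name, rose with DUX4 (log2 0.18, adjusted p = 0.00685) and fell with DUXC (log2 -0.66, adjusted p = 8.92e-13).

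The other exchange factors and adaptors of HSP70 differed among themselves. HSPBP1, which releases nucleotide from HSP70, rose with DUX4 from 27.7 ± 1.02 to 35.6 ± 2.34 CPM (log2 0.36, adjusted p = 2.96e-08) and fell with DUXC to 18.0 ± 0.988 CPM (log2 -0.62, adjusted p = 2.97e-14). BAG1, which ties HSP70 to the proteasome, fell from 72.5 ± 1.72 CPM to 66.5 ± 0.854 with DUX4 (log2 -0.12, adjusted p = 0.00225) and 39.0 ± 0.945 with DUXC (log2 -0.89, adjusted p = 1.91e-26). BAG2, an inhibitor of the ubiquitin ligase CHIP, fell with DUXC (log2 -0.90, adjusted p = 2.13e-07) and did not pass with DUX4.

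BAG6, which captures membrane proteins that miss their target, rose with DUXC, from 142 ± 5.26 to 310.1 ± 8.22 CPM (log2 1.12, SE 0.03, adjusted p = 7.60e-33), and slightly with DUX4, to 155 ± 5.43 CPM (log2 0.13, adjusted p = 0.000938). BAG4 and BAG5 rose with DUXC by log2 0.47 and 0.45 and did not pass with DUX4. HSPBAP1, a binding partner of HSPB1, rose with DUXC by log2 0.80 (adjusted p = 3.61e-14). HSPBAP1, HSF2BP, HSPA12B and HSPA13 lie outside the rule for named genes and were chosen after their values were seen.

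HSPD1, HSPE1 and HSPA9, the core chaperones of the mitochondrial matrix, rose with DUX4 and fell with DUXC. HSPD1, the HSP60 chaperonin (chromosome 15, 101360355 to 101373498), had 505, 508 and 489 CPM with GFP, 586, 595 and 573 CPM with DUX4 and 350.5, 350.3 and 360.0 CPM with DUXC. The 3 groups did not overlap, at log2 0.22 (SE 0.03, adjusted p = 3.37e-09) and -0.50 (SE 0.03, adjusted p = 7.22e-21). HSPE1, its HSP10 lid, has an annotated span 521 bases away from that of HSPD1. It rose with DUX4 (log2 0.21, SE 0.03, adjusted p = 1.82e-07) and fell with DUXC (log2 -0.15, SE 0.03, adjusted p = 3.44e-05). Library size alone, which raised the median DUXC change of all genes by log2 0.12, left HSPE1 at -0.029 with DUXC and without a call (adjusted p = 0.424).

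HSPA9, the HSP70 of the mitochondrial matrix, had 493, 488 and 491 CPM with GFP, 582, 575 and 581 CPM with DUX4 and 412, 426 and 422 CPM with DUXC. The libraries of each group lay within a narrow band and the groups apart, at log2 0.24 (SE 0.03, adjusted p = 3.18e-10) and -0.22 (SE 0.03, adjusted p = 9.13e-10). Of the 9 mitochondrial members, all tested, 5 rose with DUX4 and the other 4 did not pass, and 3 rose and 5 fell with DUXC. The shares called were 55.6% with DUX4, below the 64.8% of all genes, and 88.9% with DUXC beside 82.5%. By direction, 55.6% were raised and 0% lowered with DUX4, beside 32.9% and 31.9% of all genes. With DUXC 33.3% were raised and 55.6% lowered, beside 40.2% and 42.3%.

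**Figure D4:**
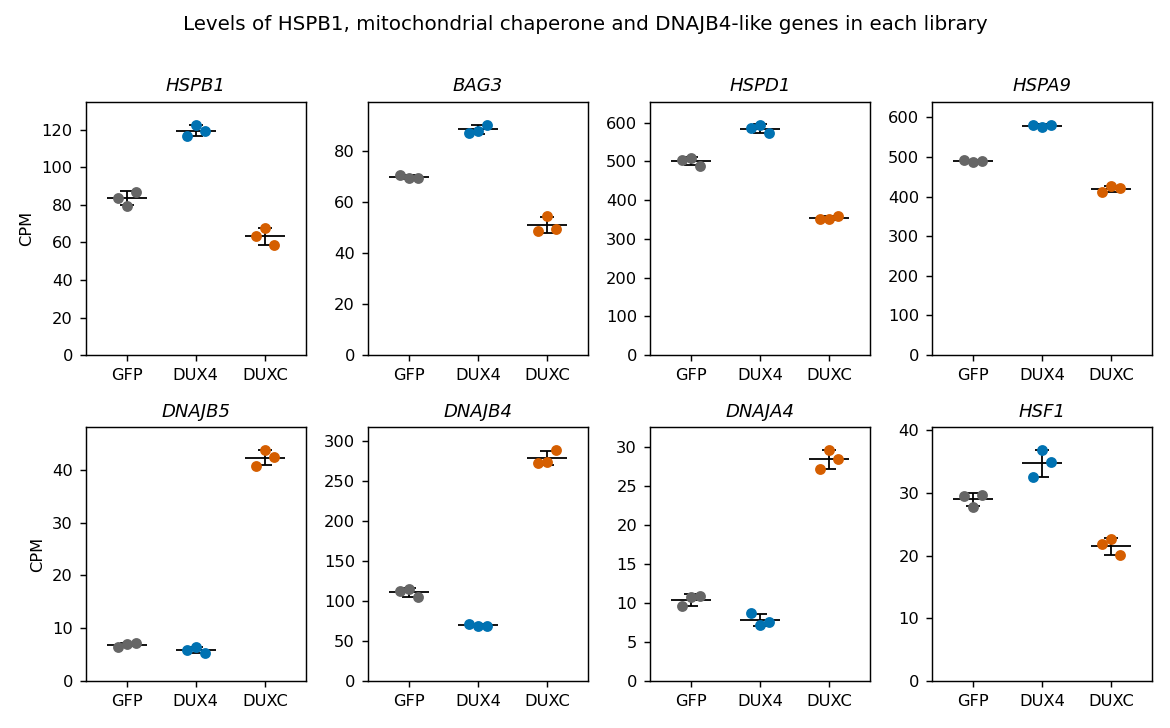
CPM of HSPB1, BAG3, HSPD1, HSPA9, DNAJB5, DNAJB4, DNAJA4 and HSF1 in each library (points) with the mean and SD of n = 3 (black), on linear axes that start at 0. HSPB1, BAG3, HSPD1, HSPA9 and HSF1 are highest with DUX4 and lowest with DUXC, and DNAJB5, DNAJB4 and DNAJA4 are lowest with DUX4 and highest with DUXC.

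Partner genes of the chaperones were read in 5 lists drawn from general knowledge, with earlier results of these data known. Of 18 co-chaperones of HSP90 and HSP70, 10 rose and 4 fell with DUX4, or 55.6% and 22.2% beside 32.9% and 31.9% of all genes. With DUXC 7 rose and 7 fell, 38.9% each way beside 40.2% and 42.3%. STIP1, which bridges HSP70 and HSP90, rose from 157 ± 1.87 CPM to 220 ± 2.92 with DUX4 (log2 0.49) and 311 ± 5.86 with DUXC (log2 0.99). CHORDC1 rose with DUX4 by log2 0.57 and with DUXC by 0.73. NUDC and FKBP5 rose with DUX4 by log2 0.68 and 0.52 and did not pass with DUXC, at -0.023 and 0.029. With DUXC, CDC37L1 and TTC4 rose by log2 1.03 and 0.82, and UNC45A, a myosin chaperone, fell by 0.96 on the log2 scale.

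The TRiC chaperonin and its feeder prefoldin fold actin and tubulin. Of their 14 genes 13 rose and 1 fell with DUX4, and 2 rose and 8 fell with DUXC. These are 92.9% and 7.14% with DUX4 and 14.3% and 57.1% with DUXC, beside 32.9% and 31.9%, and 40.2% and 42.3%, of all genes. Their median log2 fold changes were 0.19 and -0.16. CCT5, PFDN1, TCP1 and CCT3 rose with DUX4 by log2 0.34, 0.46, 0.30 and 0.27. VBP1, CCT6A, CCT2 and CCT7 fell with DUXC by 0.60, 0.45, 0.31 and 0.28 on the log2 scale. Of 14 tested mitochondrial partners, 7 rose and 1 fell with DUX4, and 4 rose and 9 fell with DUXC. The shares called were 57.1%, below the 64.8% of all genes, and 92.9% beside 82.5%. The matrix protease LONP1 and the quality protease HTRA2 rose with DUX4 by log2 0.34 and 0.41, as did BCS1L and TIMM44 by 0.47 and 0.22. With DUXC, the disaggregase CLPB and the protease subunit AFG3L2 fell by 0.48 and 0.35 on the log2 scale, and YME1L1 and CLPX rose by 0.42 and 0.41.

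Other genes that heat or proteotoxic stress raises in human cells moved in both directions: of 20, 8 rose and 6 fell with DUX4, and 12 rose and 6 fell with DUXC. With DUX4 these are 40.0% and 30.0%, near the 32.9% and 31.9% of all genes, and with DUXC 60.0% and 30.0% beside 40.2% and 42.3%. ATF3, a stress transcription factor, rose by log2 1.29 with DUX4 and 2.48 with DUXC, and FOS rose by log2 1.91 and 1.77. HMOX1, which degrades heme, rose with DUX4 (log2 1.36) and fell with DUXC (log2 -1.82). TXNIP fell with DUX4 by 1.34 on the log2 scale, and was also lower with DUXC, at 132 ± 7.25 CPM against 229 ± 1.70 CPM with GFP. With DUXC, IER5, a partner of HSF1 in human cells, rose by log2 1.67, and the collagen chaperone gene SERPINH1 fell by 1.40 on the log2 scale.

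Of 13 ER chaperone genes that the rule leaves out or does not match, 10 rose and 2 fell with DUX4, and 2 rose and 10 fell with DUXC. The shares were 76.9% and 15.4% with DUX4, beside 32.9% and 31.9% of all genes, and 15.4% and 76.9% with DUXC, beside 40.2% and 42.3%. HSPA5, HSP90B1, PDIA4 and PDIA6 rose with DUX4 by log2 0.81, 0.68, 0.57 and 0.56. HSPA5 was also higher with DUXC, at 1335 ± 29.6 CPM against 1083 ± 7.85 CPM with GFP. CALR, HYOU1, DNAJC10 and HSP90B1 fell with DUXC by 0.87, 0.85, 0.81 and 0.76 on the log2 scale.

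**Figure D5:**
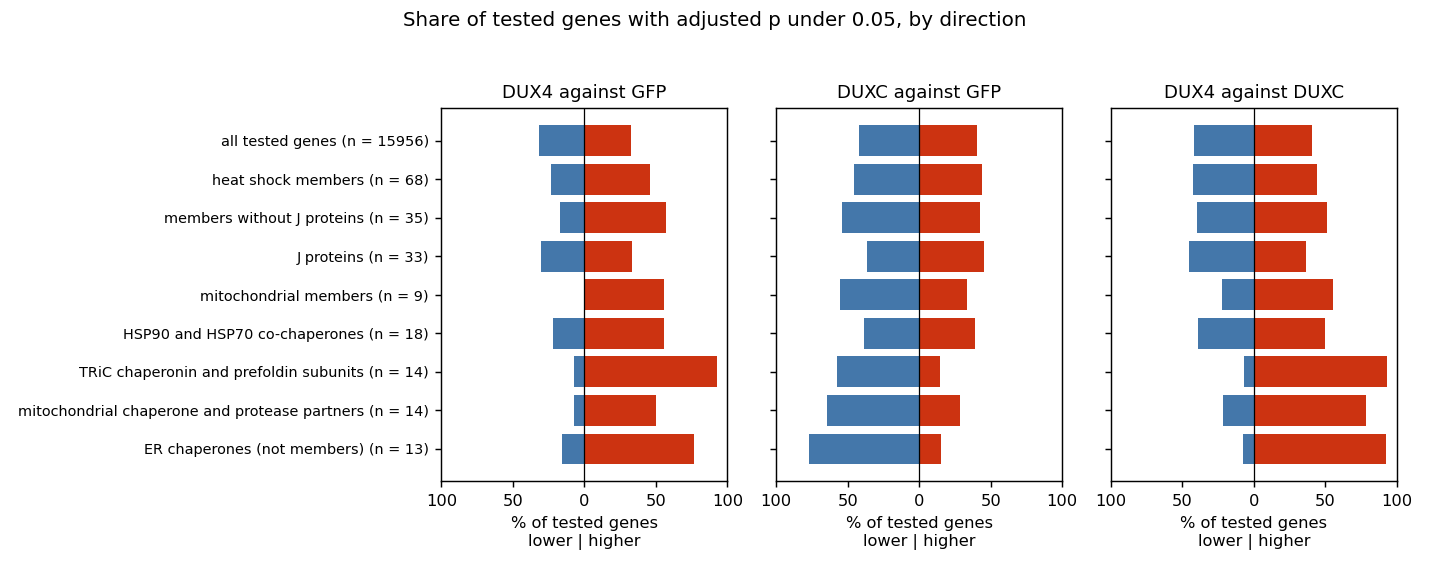
Share of tested genes that were called higher (red, to the right) or lower (blue, to the left) in each comparison, in percent, for all tested genes, the heat shock members, some of their subsets and 4 partner lists. With DUX4 45.6% of the members were higher beside 32.9% of all tested genes, in the other panels the members stand within 4 percentage points of all genes, and the TRiC and ER lists are mostly higher with DUX4 and mostly lower with DUXC.

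The 9 members not tested were scarce in each group. HSPB9 had 2 counts over the GFP libraries, 7 with DUX4 and 21 with DUXC, and DNAJB3 had 0, 2 and 13. DNAJC22 had 2, 2 and 10, DNAJB13 had 5, 5 and 9 and DNAJB7 had 1, 1 and 8. HSF5 is given above. DNAJC5G, DNAJC5B and DNAJB8 had no count with GFP or DUX4 and 2, 1 and 1 with DUXC.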

How the data were processed

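The authors deposited raw read counts per gene for 9 libraries, 1 column each. The submitters' processing notes name CASAVA 1.9, Trim Galore, featureCounts and build Sscrofa11.1, without their roles or order, and the file headers name Subread. Neither the annotation release nor the strand setting is stated there.

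A low-count filter (filterByExpr) left 15956 genes and took out 11383. One robust quasi-likelihood model of group over all 9 libraries, with TMM scaling, was fitted in edgeR 4.0.16 under R 4.3.3. Benjamini-Hochberg adjustment ran separately over the genes of each contrast, with a threshold of 0.05. The SE is the log2 fold change divided by the square root of F. The pipeline was tested on simulated data. DESeq2 1.42.0, limma-voom (limma 3.58.1), other scalings and filters and each left-out library were tried as alternatives.

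Ratios against 3 or fewer counts carry exact 95% intervals. No permutation test was used, since the smallest exact p that groups of 3 allow is 0.1.

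All 77 members matched RefSeq by symbol, 2 of them unplaced, and 27 overlap another gene's span, so their counts may hold reads of that gene. Members and lists were chosen with earlier results of these data known. Named are the markers, textbook members, the 8 largest changes each way per comparison (at least 1 CPM in the higher group), members called in opposite directions, and up to 4 genes per partner list.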

Additional observations from a re-analysis of the deposited data

How the results depend on the processing

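The counts of changed members ranged over all alternatives from 44 to 48 for DUX4 against GFP, 58 to 63 for DUXC against GFP and 57 to 60 for DUX4 against DUXC. Leaving out each library in turn gave 44 to 47, 60 to 62 and 57 to 60. Of the values of named members, 2191 kept their direction and side of the threshold, 28 lost the call, 7 gained it and 29 turned sign. The 640 values of partner genes and 48 of HSP70.2 kept theirs, but those partner genes were picked for the smallest p in their lists. Over the full lists, 27 partner genes were raised and 40 lowered with DUXC, with ranges of 26 to 35 and 35 to 43. With DUX4 48 were raised and 14 lowered, with ranges of 45 to 50 and 11 to 15. Residuals of libraries with the same number correlated at -0.0839 to 0.0998, so the numbers do not pair them. With the replicate number as a block, 47, 61 and 59 members were called, as without it. Where signs turned, the cause was not tested. Library size alone shifted the split of raised and lowered members from 30 and 31 to 34 and 26 for DUXC against GFP, and from 30 and 29 to 26 and 32 for DUX4 against DUXC. For DUX4 against GFP it went from 31 and 16 to 34 and 14.

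With DESeq2, DESeq2's size factors and library size alone, the log2 change with DUX4 against GFP was 0.0174, 0.0175 and 0.0162 for BAG5 and 0.00496, 0.00498 and 0.00374 for HSP90AB1. Under the same settings DNAJC18 with DUXC was 0.0594, 0.0593 and 0.107. For DUX4 against DUXC, DNAJB6 was -0.0336, -0.0336 and -0.0821 and HSP90AA1 -0.0379, -0.0380 and -0.0866. The values under library size alone passed the threshold with the opposite sign for DNAJC18 (adjusted p = 0.0103), DNAJB6 (0.0473) and HSP90AA1 (0.00432), by edgeR. With only the groups compared, BAG5 with DUX4 was 0.00188 and DNAJC18 with DUXC 0.0336, and with no filter DNAJA2 was 0.00626 for DUX4 against DUXC.

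Leaving out 1 library at a time gave log2 ranges across 0 with DUX4 for BAG2 (-0.0922 to 0.112), BAG5 (-0.0447 to 0.0224), DNAJB2 (-0.0418 to 0.0830) and HSPB2 (-0.0725 to 0.256). The same held with DUXC for DNAJC18 (-0.0479 to 0.0204) and HSPB2 (-0.330 to 0.0209), and for DUX4 against DUXC for DNAJB6 (-0.00313 to 0.0498). DNAJC6 lost its call for DUX4 against DUXC with no filter and without DUX4 or DUXC replicate 2 or 3, at adjusted p from 0.0656 to 0.153 (edgeR). DNAJC9 passed with DUXC under library size alone (adjusted p = 0.0221). The fit of only DUX4 and GFP gave no value for HSPB3. Members with few counts, such as HSPB3, are limited by depth.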

Other observations

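Neighbours whose span overlaps that of a member moved with it in some cases and differently in others. With DUXC, TRPT1 fell by 0.58 on the log2 scale and DNAJC4, which it overlaps, by 0.71. C9H11orf1 fell by 0.49 and CRYAB by 0.67, and PTPRN fell by 0.95 and DNAJB2 by 0.49. LOC100525024 rose by log2 2.00 and DNAJB5 by 2.62. WDR61, which overlaps DNAJA4, fell by 0.28 on the log2 scale with DUXC, where DNAJA4 rose by 1.46. IMMP1L, which overlaps DNAJC24, did not pass in the DUXC comparison (log2 0.00082, adjusted p = 0.992), where DNAJC24 rose by 1.66. FAM149B1, which overlaps DNAJC9, stood at log2 -0.030 with DUX4 (adjusted p = 0.648), where DNAJC9 rose by 1.02. SLC35B2, which overlaps HSP90AB1, rose with DUX4 (log2 0.41) and fell with DUXC (log2 -0.25). DGAT1, which overlaps HSF1, fell with DUXC by 0.41 on the log2 scale, close to the -0.43 of HSF1, and did not pass with DUX4.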
